A study of Mus musculus with 30 samples.

Results

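The cyclin D and CDK inhibitor genes of the G1 checkpoint were followed in blood-forming cells of mice with a conditional deletion of the m6A writer gene Mettl3. The group was fixed by name and holds 9 genes of the 24063 listed in the bulk table, namely the inhibitors Cdkn1b, Cdkn1c, Cdkn2a, Cdkn2c and Cdkn2d, the D cyclins Ccnd1, Ccnd2 and Ccnd3, and the kinase Cdk6. Of these, 8 were abundant enough to be tested in bulk. Cdkn2a was not.

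Mettl3KO mice carried Mx1-Cre and Mettl3 fl/fl, and WT mice carried Mettl3 fl/fl without the transgene. Both had received pIpC, an interferon-inducing RNA that switches Mx1-Cre on in blood cells and in other interferon-responsive tissues, 3 weeks before collection. Bone marrow was sorted as Lin-;Sca1+;c-Kit+ cells by CD150 and CD48. HSC carried CD150 alone, MPP1 neither, MPP2 both markers and MPP4 CD48 alone, with 3 mice per genotype in each population and 24 bulk libraries in all. Lin-;c-Kit+ (LK) cells from 3 Mettl3KO and 3 WT mice were profiled with 10x Chromium, which counts 3' tags of single cells. The labels used here give no age.

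D cyclins bind CDK4 or CDK6, and the complex phosphorylates the retinoblastoma protein so that E2F factors can drive entry into S phase. The INK4 proteins, encoded by Cdkn2a, Cdkn2c and Cdkn2d, bind CDK4 and CDK6 themselves. The CIP/KIP proteins p27 (Cdkn1b) and p57 (Cdkn1c) act on whole cyclin-CDK complexes. In the bone marrow, p57 and p27 are known for holding stem cells out of cycle, p18 (Cdkn2c) for limiting their self-renewal divisions, CDK6 for exit from quiescence, and cyclin D3 for the expansion of pre-B cells.

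Because Mettl3 methylates adenosines in a short consensus, the letters GGACT were searched in the sense strand of 1 coding transcript per gene (GENCODE vM21, GRCm38). Of the 9 genes, 7 held a match and Cdkn2a and Cdkn2d held none. The windows below are the matches closest to the stop codon for the 5 genes on which the results turn, and they are shown because they place the motif in each message. The matching letters stand in capitals.
Cdkn2c: gcagcactctGGACTacccccttcg
Cdkn1c: cctgcacccgGGACTgctgcggcca
Ccnd1: agtgtgacccGGACTgcctccgtgc
Ccnd3: gcactgaagtGGACTgcctgcgagc
Cdk6: ggacatcattGGACTcccaggagag
The Cdkn2c window lies in the 5′ UTR at chr4:109665686-109665710 on the minus strand, and Cdkn1c has its window in the coding sequence at chr7:143459804-143459828, minus strand. The Ccnd1 window (chr7:144932758-144934026, minus strand), the Ccnd3 window (chr17:47598129-47598622, plus strand) and the Cdk6 window (chr5:3515502-3519380, plus strand) are coding and cross an exon junction. Within 200 bases of the stop codon a match was present in Ccnd1, Ccnd3, Cdkn1b and Cdkn1c, against 38.8% of 17321 transcripts. Matches per kilobase were 1.21 in Cdkn2c, 1.05 in Cdkn1c, 1.42 in Ccnd3, 0.802 in Ccnd1 and 0.781 in Cdk6, against a median of 1.015 over 21797 genes. A match is a description of the letters and shows no methylation.

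Bulk totals were 28896498 to 55276836 counts per library, and 15545 genes were tested. Mettl3 itself averaged 14.4 ± 2.78 CPM (counts scaled to a common library size) in Mettl3KO HSC and 36.9 ± 5.52 CPM in WT HSC (SD, n = 3 each), and was lower in the Mettl3KO in all 4 populations. Slamf1, which encodes CD150, and Cd48 followed the sort gates in WT libraries. The second Mettl3KO library of MPP1 stood apart: the summed level of 6 neutrophil markers was 67795 CPM there and at most 4159 CPM in any other library, with none of the 6 at 0. The MPP1 changes of the members and of the pathway genes that passed are therefore also given without it. In bulk libraries, fewer cells of a type and less RNA per cell cannot be told apart. Genes on the opposite strand overlap Cdkn1c, Ccnd1, Ccnd2, Ccnd3 and Cdk6, and the sources used here do not say whether the counting used strand, so reads of those partners may be included.

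The inhibitor Cdkn1c had the widest range of the tested members, spanning 3.91 on the log2 CPM scale over the 8 bulk group means, and in WT marrow it was highest in HSC. Its level was 100.8, 73.4 and 139.3 CPM in WT HSC, 22.4, 54.6 and 54.3 CPM in WT MPP1, 16.6, 24.8 and 26.0 CPM in WT MPP2, and 17.8, 10.8 and 14.8 CPM in WT MPP4. HSC lay above every library of the other populations. The log2 difference was 2.22 ± 0.35 (SE) for HSC over MPP2 (adjusted p = 0.00094) and 2.85 ± 0.36 for HSC over MPP4 (adjusted p = 4.33e-05). MPP1 exceeded MPP4 by 1.599 ± 0.34 (adjusted p = 0.0093), a call that was lost without WT MPP1 replicate 2 (0.0515) or without WT MPP4 replicate 2 (0.0553). The neighbours HSC and MPP1 (1.26 ± 0.34), MPP1 and MPP2 (0.96 ± 0.33) and MPP2 and MPP4 (0.64 ± 0.33) did not pass, with adjusted p of 0.339, 0.1502 and 0.975. DESeq2 did call the first of these (adjusted p = 0.0305).

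Cdk6 ran the other way. It was at 59.4, 116.1 and 72.8 CPM in WT HSC, 96.6, 104.8 and 108.0 CPM in WT MPP1, 128.6, 157.1 and 184.1 CPM in WT MPP2 and 147.6, 146.9 and 131.7 CPM in WT MPP4. Every WT HSC library lay below every WT MPP2 and MPP4 library. The differences were -0.92 ± 0.23 for HSC over MPP2 (adjusted p = 0.0261) and -0.78 ± 0.23 for HSC over MPP4 (adjusted p = 0.0313). Either call was lost on leaving out single libraries, with adjusted p up to 0.112 against MPP2 and 0.119 against MPP4.
None of the other members passed in any of the 6 pairs of WT populations by edgeR. Cdkn2c averaged 28.3 ± 2.64 CPM in WT HSC, 32.5 ± 7.98 in WT MPP1, 54.3 ± 2.42 in WT MPP2 and 53.3 ± 8.51 in WT MPP4, and the HSC over MPP4 difference was -0.91 ± 0.49 (adjusted p = 0.218). A fit on the compared groups alone called Cdkn2c lower in HSC than in MPP2 (adjusted p = 0.0171) and MPP4 (0.0143). DESeq2 called Ccnd2 higher in HSC than in MPP2, by 0.59 (adjusted p = 0.0225). Among all genes tested, 3.91% passed between HSC and MPP2, 12.0% between HSC and MPP4, 4.64% between MPP1 and MPP4, 2.01% between MPP1 and MPP2, 0.0257% between HSC and MPP1 and 0.0901% between MPP2 and MPP4. Of 15 proliferation markers, 4 were lower in HSC than in MPP2 and 9 lower than in MPP4, and none was higher. MPP1 was alike, with 6 lower than in MPP2, 7 lower than in MPP4 and none higher. Between HSC and MPP1 none was called.

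Per kilobase of exon, Ccnd3 was the most abundant member in every WT population. Its mean was 85.3 CPM per kb in WT HSC, where Cdkn1c followed with 51.3, Ccnd2 with 36.3 and Cdkn2d with 35.2 CPM per kb. The remaining tested members were lower in WT HSC, with Cdkn2c at 10.5, Ccnd1 at 6.60, Cdk6 at 5.92 and Cdkn1b at 4.36 CPM per kb. In WT MPP4, Ccnd3 reached 113.3 CPM per kb and Cdkn1c 7.09. Cdkn2a, which encodes p16 and p19Arf, had at most 22 counts in any library. It was at 0 in all 3 Mettl3KO libraries of MPP1, where a count of 0 allows up to 3 counts per library.

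Among members whose 8 group means spanned at least 1 on the log2 CPM scale, the genes with the most similar profile were listed by Pearson's r over those means. For Cdkn1c they were Foxj2, Mpp7 and Meis1 (r of 0.988, 0.985 and 0.985). For Cdkn2c they were Fancl, Cryl1 and Bank1 (0.986, 0.978 and 0.977), for Ccnd3 Tifa, Smarca4 and Lrmp (0.992, 0.987 and 0.983), and for Cdk6 Hnrnpa0, Snord52 and C1galt1c1 (0.973, 0.970 and 0.963). Each list was picked from all qualifying genes over 8 points and is a description.

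In Mettl3KO bulk libraries the kinase gene Cdk6 was higher in HSC and MPP1 and the cyclin gene Ccnd3 was higher in MPP4, and no decrease of a member passed the threshold (adjusted p under 0.05, Benjamini-Hochberg over all genes tested). Cdk6 was at 159.2, 161.5 and 133.1 CPM in Mettl3KO HSC, against 59.4, 116.1 and 72.8 CPM in WT HSC. The groups did not overlap, and the log2 fold change was 0.87 ± 0.23 (adjusted p = 0.0250, edgeR). Cdk6 was the 1 member called of 8 tested in HSC, where 6.15% of all genes were called.
In MPP1, Cdk6 was at 137.6, 141.1 and 252.2 CPM in Mettl3KO and 96.6, 104.8 and 108.0 CPM in WT. The third Mettl3KO library was the highest, and all Mettl3KO libraries exceeded all WT libraries. The log2 fold change was 0.78 ± 0.23 (adjusted p = 0.0375), and again 1 of 8 members was called, with 8.63% of all genes called. Without the neutrophil-rich Mettl3KO library it was 0.94 and also passed.
Both Cdk6 calls were sensitive to single libraries. In HSC the adjusted p was 0.130 without WT replicate 1, 0.100 without WT replicate 3 and 0.0841 without Mettl3KO replicate 2. In MPP1 it was 0.117, 0.0895 and 0.0808 without WT replicates 1, 2 and 3, and 0.223 without Mettl3KO replicate 3. When the spread was estimated from the compared groups only, it was 0.129 in HSC and 0.263 in MPP1.
In MPP2, Cdk6 was at 227.6, 209.2 and 207.2 CPM in Mettl3KO and 128.6, 157.1 and 184.1 CPM in WT, without overlap, but the change of 0.45 ± 0.23 missed the threshold (adjusted p = 0.330). No member was called in MPP2, where 2.47% of all genes were. In MPP4 the Cdk6 change was 0.09 ± 0.23 (adjusted p = 0.918). The effect in HSC exceeded that in MPP4 by 0.78 ± 0.32, a difference that did not pass (adjusted p = 0.226).

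**Figure D1:**
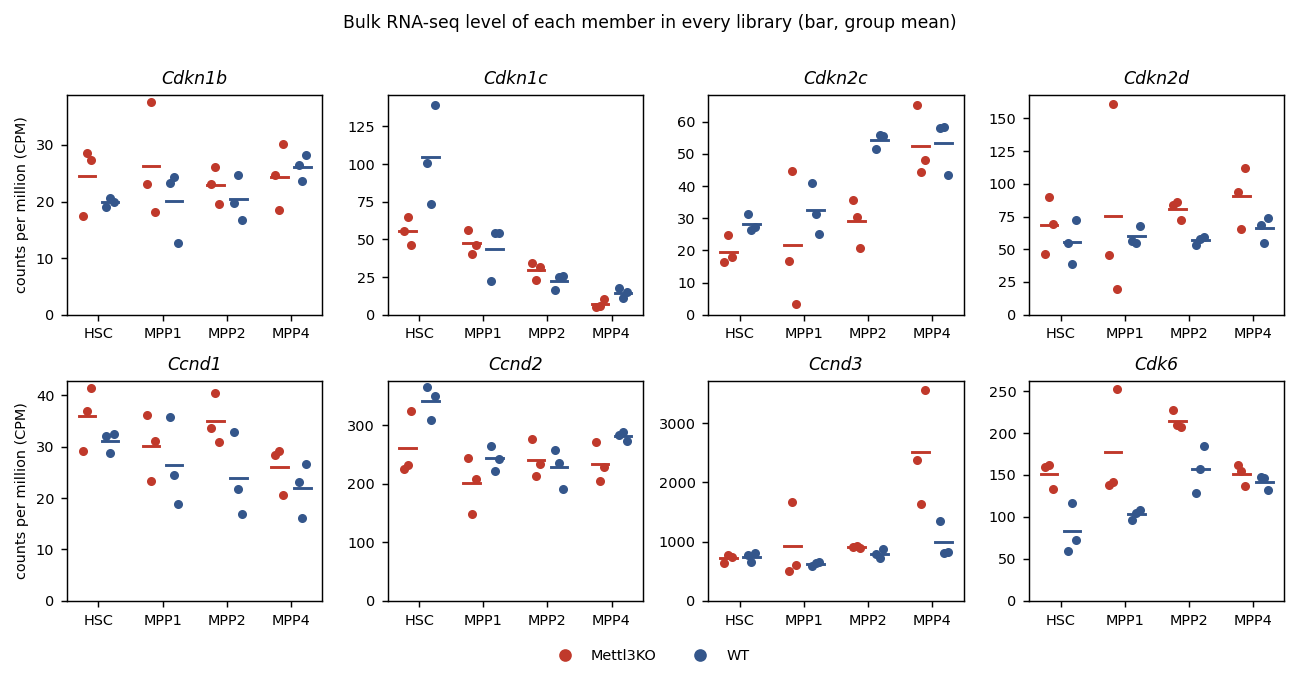
Bulk level in CPM (vertical axis, from 0) of each tested member in every library, by sorted population, with points for mice and a bar for the group mean. Mettl3KO libraries of Cdk6 lie above WT in HSC, MPP1 and MPP2, and Mettl3KO Ccnd3 is highest in MPP4, between 1634 and 3558 CPM.

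Ccnd3, the D cyclin of lymphoid progenitors, was at 2371, 1634 and 3558 CPM in Mettl3KO MPP4, against 1349, 809 and 825 CPM in WT MPP4. The groups did not overlap, and the log2 fold change was 1.34 ± 0.33 (adjusted p = 0.0281). It was the 1 member called of 8 in MPP4, where 3.13% of all genes were called. The call was lost without WT replicate 2 (adjusted p = 0.135), WT replicate 3 (0.160), Mettl3KO replicate 1 (0.0560) or Mettl3KO replicate 3 (0.200).
B cell markers moved in the same libraries. The summed level of 7 B cell genes (Cd79a, Cd79b, Vpreb1, Vpreb3, Igll1, Ebf1 and Pax5) was 3173, 1895 and 4366 CPM in Mettl3KO MPP4 and 946.4, 558.4 and 429.9 CPM in WT MPP4, and none of the 7 was at 0 in either group. The highest and lowest Mettl3KO libraries were the same for both measures. The part of B lineage cells in the Ccnd3 result was not tested in bulk.
In the other populations Ccnd3 changed by -0.06 ± 0.32 in HSC, 0.58 ± 0.32 in MPP1 and 0.19 ± 0.32 in MPP2, and none passed (adjusted p of 0.958, 0.271 and 0.848). The MPP1 value was -0.13 without the neutrophil-rich Mettl3KO library, in which Ccnd3 was at 1671 CPM. The effect in HSC was below that in MPP4 by -1.40 ± 0.46 (adjusted p = 0.127), a difference that DESeq2 called (adjusted p = 0.0389).

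**Figure D2:**
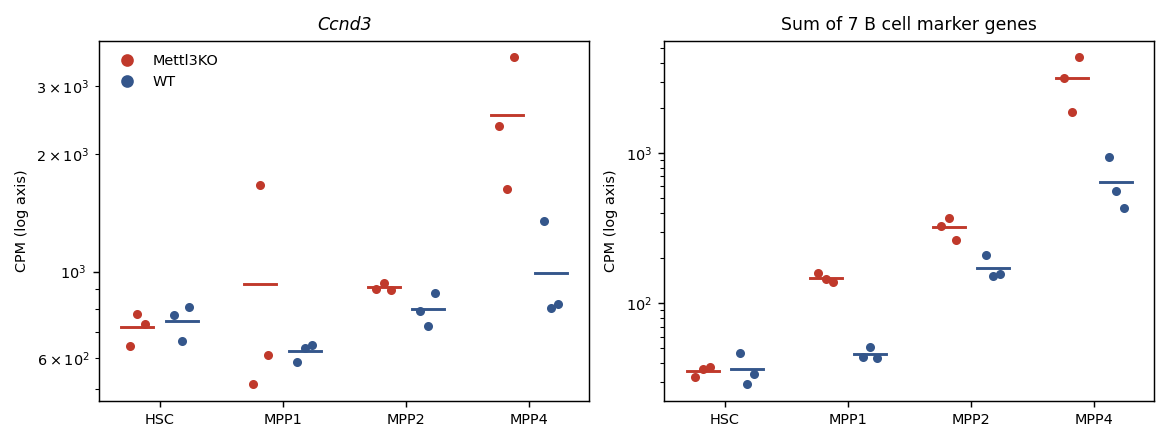
Ccnd3 (left) and the sum of 7 B cell marker genes (right) in each bulk library, in CPM on log axes, with Mettl3KO left of WT in each population. Both are highest in Mettl3KO MPP4, where the marker sum is 1895 to 4366 CPM, against 429.9 to 946.4 CPM in WT MPP4.

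None of the inhibitor genes was called in bulk. Cdkn1c was at 55.4, 64.8 and 46.0 CPM in Mettl3KO HSC, against 100.8, 73.4 and 139.3 CPM in WT HSC. The groups did not overlap, and the log2 fold change was -0.91 ± 0.33 (adjusted p = 0.114, with 0.0472 by DESeq2). In MPP4, Cdkn1c was at 4.96, 5.72 and 10.5 CPM in Mettl3KO and 17.8, 10.8 and 14.8 CPM in WT, again without overlap, with a change of -1.03 ± 0.34 (adjusted p = 0.112, with 0.0432 by DESeq2). Cdkn1c changed by 0.13 ± 0.33 in MPP1 (0.25 without the neutrophil-rich library) and 0.40 ± 0.33 in MPP2. The effect in HSC was not shown to differ from that in MPP2 (difference -1.32 ± 0.47, adjusted p = 1.00).
Cdkn2c was negative in all 4 populations, at -0.53 ± 0.49 in HSC, -0.60 ± 0.49 in MPP1, -0.91 ± 0.49 in MPP2 and -0.02 ± 0.49 in MPP4, with adjusted p from 0.385 to 1.00. It was at 35.8, 30.4 and 20.8 CPM in Mettl3KO MPP2, against 51.5, 55.8 and 55.6 CPM in WT MPP2, and these groups did not overlap. In MPP1 it was at 16.7, 44.6 and 3.21 CPM in Mettl3KO and 41.0, 31.3 and 25.1 CPM in WT. Without the neutrophil-rich Mettl3KO library the MPP1 change was -1.69 (adjusted p = 0.0186).
Cdkn2d, the INK4 gene for p19, was positive in all 4 populations with changes of 0.31 to 0.51, none called. In MPP1 its change was -0.87 without the neutrophil-rich library, which held 161.0 CPM. Cdkn1b changed by -0.10 to 0.39 and Ccnd1 by 0.19 to 0.55, with no call in any population. Without the neutrophil-rich library the MPP1 changes were 0.06 for Cdkn1b, 0.37 for Ccnd1 and -0.08 for Ccnd2 (-0.28 with it), and none was called. Ccnd2 changed by -0.39 ± 0.18 in HSC (adjusted p = 0.228), with 225.8, 232.1 and 325.0 CPM in Mettl3KO and 365.1, 309.7 and 350.8 CPM in WT. For all 8 members, no difference of the effect between HSC and another population passed, while 0.0386%, 0.00643% and 1.55% of all genes did against MPP1, MPP2 and MPP4.

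**Figure D3:**
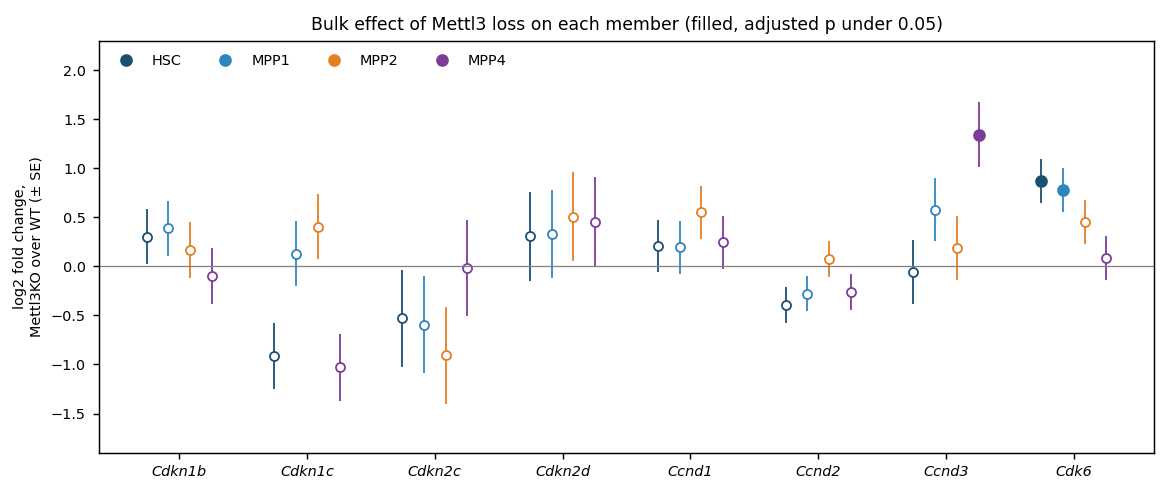
Log2 fold change of each tested member in bulk, Mettl3KO over WT, with its standard error, by population. Filled points passed an adjusted p of 0.05, namely Cdk6 in HSC (0.87) and MPP1 (0.78) and Ccnd3 in MPP4 (1.34).

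Neighbouring genes of the checkpoint were counted by list. Cdkn1a, which encodes p21 and shares the CIP/KIP domain with p27 and p57, was at 38.6, 79.6 and 77.9 CPM in Mettl3KO HSC, against 8.51, 7.36 and 12.98 CPM in WT HSC, and rose by 2.76 ± 0.36 (adjusted p = 9.24e-05). It also rose in MPP1 (1.76, adjusted p = 0.00425) and MPP2 (1.605, adjusted p = 0.0150), and in MPP4 the change was 1.02 (adjusted p = 0.115). The MPP2 call was lost on leaving out single libraries, with adjusted p up to 0.0853. The MPP1 call held without any single library, at 1.43 without the neutrophil-rich one, but was lost when the spread was estimated from the compared groups only (adjusted p = 0.123).
In HSC no gene of the other 5 lists passed. In MPP1, E2f1, E2f2 and E2f3, activators of S phase genes, rose by 0.70, 2.15 and 0.97 of 11 pocket protein and E2F genes. Cdk4, whose product binds D cyclins as CDK6 does, fell by 0.57. Of 15 upstream regulators, Foxo1 rose by 1.22 while Bmi1, a repressor of Cdkn2a, fell by 1.44 and Trp53 by 0.44. Of 8 turnover genes, Fbxw7, part of the ligase that targets cyclin E, rose by 0.84 and Skp1a fell by 0.53. Mki67 was the 1 of 15 proliferation markers to rise (1.41).
Without the neutrophil-rich library 7 of these 11 MPP1 calls of pathway genes, Cdkn1a included, passed again. The changes were then 0.76 for E2f1, 1.22 for E2f2, 0.94 for E2f3, 1.55 for Foxo1, -1.96 for Bmi1 and 0.96 for Fbxw7. Calls were lost for Cdk4 (-0.47, adjusted p = 0.105), Trp53 (-0.32, 0.129), Skp1a (-0.43, 0.0776) and Mki67 (0.73, 0.107). They were gained for 4 genes, with Ccna2 at -1.18, Pcna at -0.87, Ambra1 at 1.07 and Tgfbr1 at 1.35. Leaving out other single libraries ended the calls of E2f1 (adjusted p up to 0.118), E2f3 (0.0988), Fbxw7 (0.0756) and Foxo1 (0.196). With the compared groups only, none of the 11 passed (adjusted p from 0.123 to 0.350).
In MPP4, E2f2 (1.98), the cyclins Ccne2 (1.37) and Ccnb1 (1.11), Foxo1 (1.69), Ezh2 (0.83) and the ribonucleotide reductase subunit Rrm2 (1.46) rose, and no gene of these lists fell. Each of these 6 calls was lost without WT replicate 2, WT replicate 3 or Mettl3KO replicate 3, with adjusted p from 0.0589 to 0.206. The median change of the 15 proliferation markers was 0.58 in MPP4, beside -0.01 over all genes tested. In MPP2 Cdkn1a was the single gene of the 6 lists that passed. Over the 8 tested members the median change was 0.07 in HSC, 0.26 in MPP1, 0.29 in MPP2 and 0.03 in MPP4, beside 0.00, 0.01, -0.02 and -0.01 over all genes tested.

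In the 10x data, 24396 of 24693 LK cells were kept and clustered without the 9 members or the genes of the pathway lists. Library totals were 28546967 to 44159208 UMIs, and 303 cell barcodes occurred in more than 1 library. Class shares differed widely. B cell-like cells made up 16.6%, 29.9% and 24.4% of the Mettl3KO libraries and 6.65%, 3.41% and 3.98% of the WT libraries. A cluster with stem cell markers such as Procr and Mecom held 1187, 425 and 883 Mettl3KO cells and 7, 7 and 4 WT cells, so its levels could not be compared. WT replicate 3 held 1103 neutrophil-like cells, and no other library held more than 109. Summed over all LK cells, Mettl3 was at 10.6, 12.5 and 13.1 CPM in Mettl3KO and 19.7, 22.3 and 18.9 CPM in WT. By class edgeR called it lower in eosinophil-like (-0.85), erythroid-like (-0.40) and megakaryocyte-like cells (-1.31). The first and second of these calls were lost on leaving out single libraries. Mettl3 was negative without passing in B cell-like (-0.32, adjusted p = 0.752), monocyte-like (-0.45, 0.229), lymphoid-primed-like (-0.64, 0.179) and granulocyte progenitor-like cells (-0.85, 0.1595). In dendritic-like cells Mettl3 was not tested.

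Summed over all LK cells, Ccnd1, Cdkn1c and Ccnd3 rose and Cdkn2c fell, which was 4 of 8 tested members where 22.4% of 13071 genes were called. Ccnd1, the D cyclin of mitogen signalling, was at 21.9, 21.9 and 23.2 CPM in Mettl3KO and 13.4, 9.27 and 10.9 CPM in WT, a change of 0.99 ± 0.13 (adjusted p = 0.00182). Cdkn1c was at 5.64, 3.89 and 4.19 CPM in Mettl3KO and 1.26, 1.93 and 1.68 CPM in WT, a change of 1.5 ± 0.21 (adjusted p = 0.00250). All Mettl3KO libraries lay above all WT libraries for both genes.
Ccnd3 was at 206.5, 254.7 and 268.2 CPM in Mettl3KO and 177.2, 165.1 and 175.5 CPM in WT, a change of 0.49 ± 0.10 (adjusted p = 0.0105). Without B cell-like and neutrophil-like cells it was at 121.4, 118.9 and 140.5 CPM in Mettl3KO and 137.2, 149.5 and 118.5 CPM in WT, and the change was -0.09 ± 0.10 (adjusted p = 0.546). Within B cell-like cells, where Ccnd3 was most abundant, it was at 872.6, 841.2 and 925.8 CPM in Mettl3KO and 1089, 1041 and 964.4 CPM in WT (change -0.23 ± 0.08, adjusted p = 0.350). In these cells every Mettl3KO library lay below every WT library.
Cdkn2c was at 28.3, 31.1 and 22.2 CPM in Mettl3KO and 39.8, 35.3 and 45.8 CPM in WT, a change of -0.57 ± 0.14 (adjusted p = 0.0225). That call was lost without Mettl3KO replicate 1 (0.0562), Mettl3KO replicate 3 (0.0536) or WT replicate 1 (0.0512). Without B cell-like and neutrophil-like cells Cdkn2c changed by -1.09 ± 0.13 (adjusted p = 0.000575). In that sum Cdkn2d (0.55, adjusted p = 0.00157) and Ccnd2 (0.40, adjusted p = 0.0429) were also called, which made 5 of 8 members with 22.5% of genes called. The Ccnd2 call was lost without Mettl3KO replicate 1 (0.143) or 3 (0.107) or WT replicate 2 (0.141) or 3 (0.115).
Cdkn2a had 7, 19 and 19 UMIs in Mettl3KO and 3, 2 and 1 UMIs in WT and was below the filter. With no filter its change was 2.86 (adjusted p = 0.00733). B cell-like cells held 3, 16 and 17 of the Mettl3KO UMIs and 2, 1 and 0 of the WT UMIs.
Cdk6 was not called in LK cells, with 278.8, 232.6 and 244.0 CPM in Mettl3KO and 297.2, 274.3 and 266.3 CPM in WT (change -0.15 ± 0.09, adjusted p = 0.256). The 10x change and the bulk HSC change were measured with different assays and cells, and their difference was not tested.

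**Figure D4:**
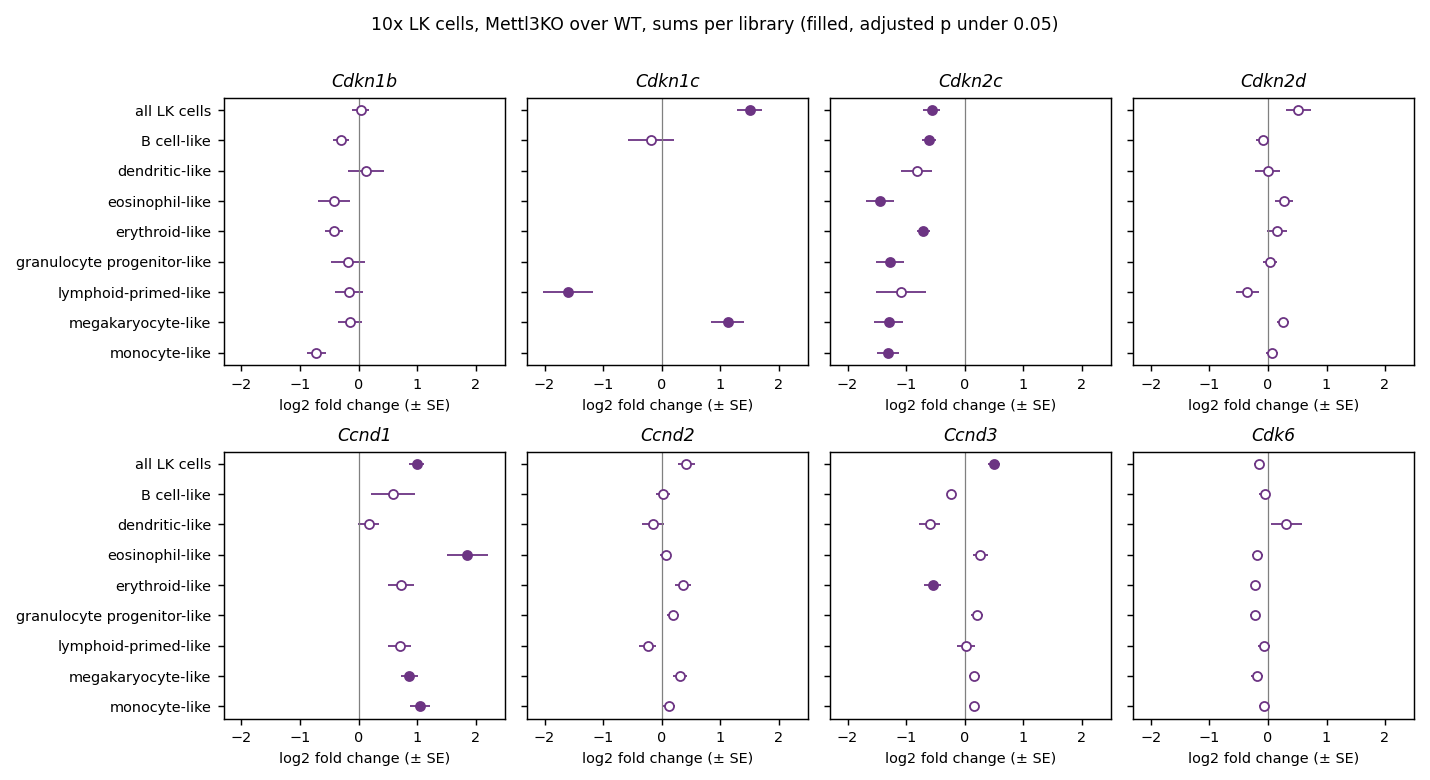
Log2 fold change of each tested member in 10x LK cells, Mettl3KO over WT, with its standard error (horizontal axis), for all LK cells and 8 classes (vertical axis). Filled points passed an adjusted p of 0.05, and Cdkn2c is negative in all 8 classes, called in 6.

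Within cell classes, Cdkn2c was called more often than any other member. It was negative in all 8 classes that reached 50 cells per library and was called in 6, the megakaryocyte-like class among them. For Cdkn2c every Mettl3KO library lay below every WT library in 7 of the 8, but how often groups separate over all genes was not counted. In monocyte-like cells it was at 24.1, 14.5 and 11.3 CPM in Mettl3KO and 38.8, 38.9 and 47.1 CPM in WT, a change of -1.30 ± 0.19 (adjusted p = 0.00354) in a class where 0.781% of genes were called.
Eosinophil-like cells had Prg2 and Prg3 among their leading genes, and at Leiden resolution 0.5 no class had this name. Here Cdkn2c was at 8.03, 8.41 and 4.22 CPM in Mettl3KO and 16.6, 19.0 and 19.4 CPM in WT. Cdkn2c changed by -1.44 ± 0.24 in this class (adjusted p = 0.00412, with 1.16% of genes called). In granulocyte progenitor-like cells it was at 10.4, 5.36 and 4.43 CPM in Mettl3KO and 17.5, 15.8 and 20.02 CPM in WT, a change of -1.28 ± 0.24 (adjusted p = 0.0137, with 0.634% called), which was lost without Mettl3KO replicate 3 (0.133). The third Mettl3KO library was the lowest in all of these classes.
In erythroid-like cells Cdkn2c was at 29.6, 28.2 and 21.9 CPM in Mettl3KO and 43.3, 43.5 and 41.7 CPM in WT, a change of -0.71 ± 0.11 (adjusted p = 0.00213, with 6.40% called). In B cell-like cells, where its level was highest, it was at 98.8, 94.3 and 72.8 CPM in Mettl3KO and 140.1, 135.6 and 123.4 CPM in WT, a change of -0.61 ± 0.12 (adjusted p = 0.0346, with 0.245% called). The B cell-like call was lost on leaving out any library but Mettl3KO replicate 1, with adjusted p up to 0.217.
In megakaryocyte-like cells it was at 19.5, 11.1 and 8.61 CPM in Mettl3KO and 38.5, 32.1 and 30.6 CPM in WT, a change of -1.30 ± 0.25 (adjusted p = 0.000689, with 32.0% called). Different clusters held this class in the Mettl3KO and WT libraries, and at Leiden resolution 0.5 no cluster was named megakaryocyte-like. Cluster 9 had 468, 197 and 440 Mettl3KO cells and 1, 0 and 2 WT cells, and cluster 14 had 23, 27 and 34 Mettl3KO cells and 187, 184 and 235 WT cells. Among the leading genes, 1 listed megakaryocyte marker stood in cluster 9 (Itga2b) and 4 in cluster 14. Cluster 9 also had Tcf15 and Nupr1, which were leading genes of the cluster with stem cell markers at resolution 0.5. That cluster held 1658, 623 and 1324 Mettl3KO cells and 8, 6 and 7 WT cells. How many cells of cluster 9 it took in was not counted. Within cluster 14 the Cdkn2c change was -0.39 ± 0.35 (adjusted p = 0.775). Dendritic-like cells (-0.82 ± 0.26, adjusted p = 0.276, with 0.517% of genes called) and lymphoid-primed-like cells (-1.10 ± 0.43, adjusted p = 0.164, with 4.19% called) were negative without passing.

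**Figure D5:**
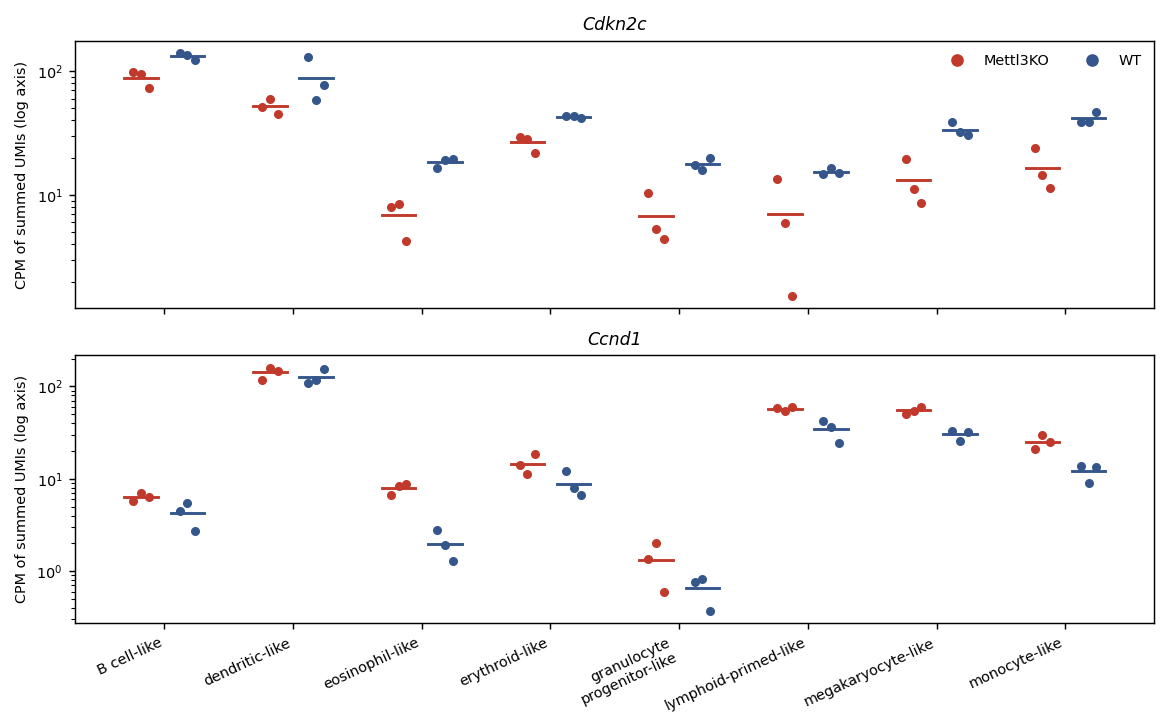
Level of Cdkn2c (top) and Ccnd1 (bottom) in each 10x library by cell class, in CPM of summed UMIs on log axes, with a bar for the group mean. Mettl3KO points of Cdkn2c lie below WT in every class except the dendritic-like, and those of Ccnd1 lie above WT in 5 of the 8 classes. How often groups separate in this way over all genes was not counted.

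Ccnd1 was positive in all 7 classes in which it was tested and was called in 3. In these, 1.16% (eosinophil-like), 0.781% (monocyte-like) and 32.0% (megakaryocyte-like) of all genes were called. In eosinophil-like cells it was at 6.63, 8.41 and 8.75 CPM in Mettl3KO and 2.77, 1.90 and 1.29 CPM in WT, a change of 1.86 ± 0.35 (adjusted p = 0.0101). In monocyte-like cells it was at 20.8, 29.9 and 24.8 CPM in Mettl3KO and 13.7, 9.07 and 13.4 CPM in WT, a change of 1.04 ± 0.17 (adjusted p = 0.00893). Both calls missed the threshold without WT replicate 2, with adjusted p of 0.0613 and 0.0606, and the eosinophil-like WT libraries held 10, 6 and 2 UMIs.
In megakaryocyte-like cells Ccnd1 was at 50.6, 54.6 and 59.7 CPM in Mettl3KO and 32.8, 25.8 and 32.0 CPM in WT, a change of 0.86 ± 0.14 (adjusted p = 0.000207). Within cluster 14 the change was 0.31 ± 0.31 (adjusted p = 0.804). In lymphoid-primed-like cells it was at 58.2, 53.7 and 59.4 CPM in Mettl3KO and 42.4, 36.6 and 24.4 CPM in WT, and the change of 0.70 ± 0.20 missed the threshold (adjusted p = 0.0520). Ccnd1 was highest in dendritic-like cells, at 118.6, 160.2 and 148.4 CPM in Mettl3KO and 108.1, 117.1 and 155.1 CPM in WT.

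Cdkn1c passed the filter on low counts in 3 classes. In megakaryocyte-like cells it was at 13.9, 11.1 and 13.1 CPM in Mettl3KO and 5.70, 6.98 and 4.98 CPM in WT, a rise of 1.13 ± 0.28 (adjusted p = 0.00532) that DESeq2 did not call (adjusted p = 0.0714). The cells came from different clusters, as above, and cluster 14 alone held 0, 2 and 0 Mettl3KO UMIs and 8, 10 and 7 WT UMIs of Cdkn1c, or 0, 7.79 and 0 CPM in Mettl3KO and 5.87, 7.20 and 5.17 CPM in WT. In lymphoid-primed-like cells Cdkn1c was at 9.48, 4.77 and 4.57 CPM in Mettl3KO, from 7, 4 and 3 UMIs, and at 13.4, 28.1 and 15.9 CPM in WT, from 18, 36 and 17 UMIs. The change of -1.597 on the log2 scale (SE 0.43, adjusted p = 0.0369) was lost on leaving out any Mettl3KO library or WT replicate 2, with adjusted p up to 0.203.
In the mostly Mettl3KO cluster with stem cell markers, Cdkn1c was at 16.3, 13.4 and 18.03 CPM of the cluster's total in the Mettl3KO libraries. That cluster held 118, 40 and 91 of the 222, 116 and 181 Mettl3KO UMIs of Cdkn1c. Its WT cells held 0, 2 and 1 UMIs.

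Of the other members, Ccnd3 fell in erythroid-like cells, with 125.5, 119.3 and 173.9 CPM in Mettl3KO and 228.4, 225.7 and 161.3 CPM in WT (change -0.55 ± 0.14, adjusted p = 0.0377). The groups overlapped, and the call was lost without Mettl3KO replicate 1 or 2 or WT replicate 1 or 2, with adjusted p up to 0.172. Ccnd2, Cdkn1b, Cdkn2d and Cdk6 were called in none of the 8 classes. In all, 12 of 58 tested pairs of member and class were called, 4 up and 8 down, beside 5.89% of all 67699 pairs of gene and class. Of the 12, 3 were in the megakaryocyte-like class, and over the other 7 classes 2.07% of pairs of gene and class were called. Cdkn1b was negative in 7 of 8 classes and came closest in monocyte-like cells (-0.72 ± 0.16, adjusted p = 0.0564). Cdk6, higher in bulk HSC and MPP1, was also negative in 7 of 8 classes. Its lowest adjusted p was in erythroid-like cells (-0.22 ± 0.07, adjusted p = 0.0922). At Leiden resolution 0.5 Cdk6 was called lower in lymphoid-primed-like cells (-0.25, adjusted p = 0.03895).
When the cells of the stem cell-marked cluster were pooled with the lymphoid-primed-like cells, the pool came mostly from that cluster in Mettl3KO and mostly from lymphoid-primed-like cells in WT. Here 27.9% of genes were called, and Cdkn2d was at 74.9, 71.2 and 72.5 CPM in Mettl3KO and 42.5, 38.7 and 42.9 CPM in WT. Its change of 0.82 ± 0.12 (adjusted p = 0.000126) stood against -0.35 ± 0.19 (adjusted p = 0.359) in lymphoid-primed-like cells alone. Ccnd2 changed by -0.40 ± 0.13 in the pool (adjusted p = 0.0315), a call that was lost by DESeq2 (0.0557) and without Mettl3KO replicate 1 (0.0643) or 2 (0.108) or WT replicate 1 (0.179) or 2 (0.0721). Ccnd1 (0.11 ± 0.17), Cdkn1c (-0.35 ± 0.26) and Cdkn2c (-0.10 ± 0.25) were not called in the pool, with adjusted p of 0.666, 0.355 and 0.789.
Cdkn1a rose in all LK cells (1.52), in erythroid-like cells (1.88) and in megakaryocyte-like cells (2.94). The erythroid-like call was lost without Mettl3KO replicate 1 (adjusted p = 0.0517) or 3 (0.0880) or WT replicate 2 (0.0661). In the megakaryocyte-like class different clusters were compared, and within cluster 14 Cdkn1a was at 5.14, 7.79 and 11.03 CPM in Mettl3KO and 9.54, 6.48 and 8.86 CPM in WT, so that the groups overlapped. In all LK cells Foxo1, Mycn and Tgfbr2 rose by 1.69, 2.38 and 0.70 of 15 upstream regulators, and of 11 pocket protein and E2F genes E2f7 rose by 0.71 while Rb1 fell by 0.47 and E2f8 by 0.37. Without B cell-like and neutrophil-like cells the rises were 1.08 for Foxo1, 2.53 for Mycn and 0.64 for Tgfbr2. By class, Mycn rose by 1.08 in megakaryocyte-like cells but fell by 1.11 in lymphoid-primed-like cells (adjusted p = 0.00762). That fall was not called without Mettl3KO replicate 2 (0.0743). Mycn was also a leading gene of the mostly Mettl3KO cluster with stem cell markers at resolution 0.5. The Rb1 call was lost without Mettl3KO replicate 1 (adjusted p = 0.0733) or WT replicate 1 (0.0617), and the E2f7 call with the replicate block (0.0517). Over all genes tested, 22.4% were called in all LK cells. None of 15 proliferation markers was called there, and their median change was 0.05, beside -0.00 over all genes tested. In megakaryocyte-like cells 7 of 15 proliferation markers fell, 5 of them Mcm helicase genes, where 32.0% of all genes were called. Here too the Mettl3KO and WT cells came from different clusters. Within cluster 14, where 0.820% of genes were called, none of the 15 fell, Rrm2 rose by 1.03 (adjusted p = 0.0140), and their median change was 0.26. In lymphoid-primed-like cells Rrm2 (1.19) and Birc5 (0.97) rose, of 13 proliferation markers tested, where 4.19% of genes were called. The Birc5 call was lost without Mettl3KO replicate 3 (adjusted p = 0.0826). In the pool with the stem cell-marked cluster, where 27.9% of genes were called, 8 of 15 rose and 1 fell. There too the genotypes came mostly from different clusters.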

How the data were processed

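Bulk RNA-seq covered 24 libraries of 4 sorted populations and 2 genotypes, with 3 mice per group, and 10x Chromium covered 6 LK libraries. Whether 1 mouse gave several populations is not stated. The authors deposited raw counts per gene for the bulk libraries, although the table is named for another unit, and raw UMI counts per cell for the 10x libraries. The submitters' processing notes list 3 tools (Bowtie, TopHat and Cell Ranger 2.2) and 2 genome builds (GRCh37 and mm10) without their roles. The 9 genes and all lists were chosen with earlier results of these data known.

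Bulk counts were tested with edgeR 4.0.16 in R 4.3.3 (TMM, filterByExpr, quasi-likelihood test, 8 group means, 16 residual degrees of freedom), and p-values were adjusted by Benjamini-Hochberg within each comparison at 0.05. CPM values are TMM-scaled, and for levels per kilobase they were divided by the union exon length. Genes of the pathway lists that passed between genotypes in bulk and in all LK cells were named.
Cells with at most 10% mitochondrial UMIs were kept, which removed 297. Clusters (scanpy 1.11.5, Leiden resolution 1) were built without the members, the pathway genes, Mettl3, Xist and mitochondrial genes, and named from marker lists, so class names are rebuilt. A marker gene is not reported here and was left out of the lists. Scrublet marked 200 cells (0.82%), which were kept. UMIs were summed per library and class where each library had 50 cells or more, and tested the same way. Alternatives were DESeq2 1.42.0, RLE scaling, no filter, a replicate block, single libraries left out, the compared groups only, no mitochondrial filter, Leiden resolution 0.5 and doublets removed. Same-numbered libraries were checked for pairing. Scripts were tested on simulated data.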

Additional observations from a re-analysis of the deposited data

Results flagged for a closer look

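Cdkn1c, the p57 gene, moved in opposite directions in 2 cell classes of the 10x data. Its log2 change, Mettl3KO over WT, was 1.13 in megakaryocyte-like cells and -1.6 in lymphoid-primed-like cells. Cdkn1c and Cdkn2d were flagged because in each class the 3 Mettl3KO libraries lay on 1 side of the 3 WT libraries, in opposite directions. The separation was thus the rule of choice and adds no support. How often groups separate over all genes was not counted. Cdkn2d, the INK4 gene for p19, had values of 0.26 in megakaryocyte-like cells (adjusted p = 0.0622) and -0.35 in lymphoid-primed-like cells (adjusted p = 0.359). Neither of the Cdkn2d values passed. The differences between the classes were not tested. In the megakaryocyte-like class the Mettl3KO and WT cells came from different clusters, and within the cluster that held the WT cells both genes were lower on average in Mettl3KO, with groups that overlapped. Cdkn1c averaged 2.60 CPM in Mettl3KO and 6.08 CPM in WT there, from 0, 2 and 0 Mettl3KO UMIs and 8, 10 and 7 WT UMIs, and was not tested, and Cdkn2d was at -0.14 (adjusted p = 0.878). The part of this cluster difference in the result was not tested.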

How the results depend on the processing

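Members called changed with the test as follows. DESeq2 called 2 of 8 members in HSC and 2 in MPP4 (1 each by edgeR). Between WT HSC and MPP1 it called 1 (0 by edgeR), and between WT HSC and MPP2 it called 3 (2 by edgeR, with Ccnd2 added). For the HSC effect against that in MPP4 it called 1 (0 by edgeR). In all LK cells it called 7, with Cdkn2a, which was below the edgeR filter, among them (4 of 8 by edgeR). With the compared groups only, 0 members were called in HSC, 0 in MPP1 and 2 between WT MPP1 and MPP4. Leaving out 1 library gave 0 to 1 calls in HSC, 0 to 2 in MPP1, 0 to 1 in MPP4, 1 to 2 between WT HSC and MPP2 and between WT HSC and MPP4, and 0 to 1 between WT MPP1 and MPP4. In all LK cells it gave 3 to 6 (4 as reported), counting Cdkn2a where that gene passed the filter. Over the 8 classes, the 12 calls became 7 to 13, with 7 without WT replicate 2. DESeq2 gave 7 class calls, and no adjusted p for 3 of the 12. The sign turned for Ccnd3 in all LK cells without B cell-like and neutrophil-like cells (-0.0905) and for Cdkn2d when lymphoid-primed-like cells were pooled with HSC/MPP-like cells (0.82). These 2 settings, and the use of cluster 14 alone, were chosen after seeing the data.

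Of 2073 member results under alternatives, 1880 kept direction and side of the threshold, 106 turned sign without a call in either, 52 lost the call and 33 gained it. To check for pairing, the log2 CPM of each gene was taken as its deviation from the mean of its group. Correlations of these deviations between same-numbered Mettl3KO and WT libraries were -0.07, -0.18 and -0.30 in LK cells and -0.142 to 0.0541 in bulk. Between same-numbered WT libraries of different bulk populations they were all positive, at 0.0520 to 0.253, but no pair of populations had all 3 over 0.1. With the replicate block, Cdkn2c in all LK cells (adjusted p = 0.0690) and Ccnd3 in erythroid-like cells (0.0834) lost the call, and Ccnd1 in lymphoid-primed-like (0.0393) and Cdkn1b in monocyte-like cells (0.0383) gained it, and no bulk call of a member changed. Over all genes, calls ranged from 454 to 1811 in HSC (956 as reported), 33 to 2407 in MPP1 (1342), 109 to 1039 in MPP2 (384), 137 to 1134 in MPP4 (487) and 1887 to 2999 in LK cells (2934). The cause was not tested. With 3 mice per group, calls that rest on single libraries are common here, and low UMI counts limit Cdkn1c and Cdkn2a.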
